A study of Mus musculus with 2 samples.

Results

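Fgf16 and 9 other genes of the fibroblast growth factor (FGF) system were followed in RNA from adult mouse ventricles. The 10 genes are 5 secreted paracrine factors besides Fgf16 (Fgf1, Fgf2, Fgf9, Fgf10 and Fgf18), the intracellular factors Fgf12 and Fgf13, and the receptors Fgfr1 and Fgfr2. They were taken by symbol from the 38355 genes of the authors' deposited table. The genes were chosen by their role and with the deposited calls of the same contrast in view, so their group differences are given as a description.

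The labels name 1 vTBX5KO and 1 Flox sample of cardiac ventricle, both on the C57BL/6 background and 16 weeks old. Both genotypes carried Tbx5LDN/LDN, and the vTBX5KO genotype also carried Myh6-MerCreMer, a transgene in which the promoter of a cardiomyocyte myosin drives an inducible Cre. TX was given to 12-week-old animals at 30 mg/kg/day for 3 days and hearts were taken 4 weeks later, under a protocol that reads the same for both samples. The table compares a group B with a group A, and its pooled means resolved into 6 libraries, B1 to B3 and A1 to A3. A mean that is a sum of whole reads, each with the weight of its library, allowed the reads of each library to be worked back, and normalized reads below are these reads divided by the size factor of the library. No source used here says which letter is vTBX5KO and which is Flox, so every direction below is that of group B relative to group A and none is a direction of knockout relative to control. Nor does any say whether libraries that share a letter are from different mice.

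FGFs bind receptor tyrosine kinases together with heparan sulfate, and the receptors signal through adaptor proteins to the RAS-MAPK, PI3K and phospholipase C routes, which switch on their own inhibitors, the Sprouty, Spred and Dusp proteins. FGF16 belongs with FGF9 and FGF20 to one subfamily of secreted factors, and in mice it is made by cardiomyocytes. FGF12 and FGF13 belong to a separate branch that is not secreted and binds the cytoplasmic tail of voltage-gated sodium channels.

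Tbx5, the targeted gene, had 1160, 677 and 350 normalized reads in B1, B2 and B3, and 274, 224 and 390 in A1, A2 and A3, so the groups overlapped. Its log2 fold change by the authors' deposited table was 0.92 with an adjusted p of 0.0575. Being a count over all of Tbx5, it does not tell the genotype of a letter. The size factors, which stand for relative depth, were lowest in A3 (0.61) and highest in B1 (1.56). Library totals are not analysed here. Cardiomyocyte markers were all read, with deposited means from 67578 for Ryr2 to 1263444 for Ttn, and 1 of 9, Actc1, was called lower in group B (-0.55). Over all genes with an adjusted p, 2.49% were called lower. Ryr2 (-0.71, adjusted p 0.0671) and Myl2 (-0.70, adjusted p 0.0572) were not called by the authors' deposited table. Myl3 and Ttn had positive log2 fold changes, 0.13 and 0.31, and the list median was -0.13.

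Promoter sequences from RefSeq (GRCm38.p6) were at hand for 7 of the 10 genes, with Fgf16, Fgf1 and Fgfr1 having no entry. TBX5 is a T-box factor, and the T-box core AGGTGT was searched on both strands in the 250 bases before each start. Of 32851 promoters in the RefSeq table, 11.8% held it. Of the 13 listed promoters of these genes, 1 did, a start of Fgf12. That window, of a gene that was not called, is shown beside the promoter of Fgf9, a gene that was called and whose window held no match. Capitals mark the match, which is the core on the reverse strand, and both sequences read 5′ to 3′ on the strand of the gene.
Fgf12, chr16:28446076-28446325, minus strand: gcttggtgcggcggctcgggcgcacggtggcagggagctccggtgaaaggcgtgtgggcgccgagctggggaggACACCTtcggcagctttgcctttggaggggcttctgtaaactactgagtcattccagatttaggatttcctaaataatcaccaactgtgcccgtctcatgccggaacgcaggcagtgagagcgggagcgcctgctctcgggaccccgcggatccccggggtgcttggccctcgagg
Fgf9, chr14:58072436-58072685, plus strand: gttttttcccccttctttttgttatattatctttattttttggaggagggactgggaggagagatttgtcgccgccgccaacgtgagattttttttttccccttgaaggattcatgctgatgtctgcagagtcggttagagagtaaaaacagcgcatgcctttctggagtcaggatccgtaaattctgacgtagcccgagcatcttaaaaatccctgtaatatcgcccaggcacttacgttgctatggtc
The match in the Fgf12 window lies 176 to 171 bases before the start. That start lies outside the deposited span of Fgf12, 28160120 to 28445227. The Fgf9 window has 44.8% G and C, against a median of 52.4% over all promoters. A match of 6 letters is a description of the sequence, and its absence says only that these letters are not in this window.

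Of the 10 genes, 9 had an adjusted p by the authors' deposited table, and 2 of them, Fgf16 and Fgf9, were called lower in group B at an adjusted p under 0.05, none higher, and 7 not called. Over all 13230 genes with an adjusted p, 2.49% were called lower, 1.5% higher and 3.98% either way. The members were chosen with this contrast known, so nothing is read from their share. At 0.01, where 1.49% of all genes were called lower, 0.733% higher and 2.22% either way, Fgf16 was the 1 gene of the 10 called. Of the 9, 4 had a negative and 5 a positive log2 fold change, and their median was 0.07, against -0.00 over all genes with an adjusted p.

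**Figure D1:**
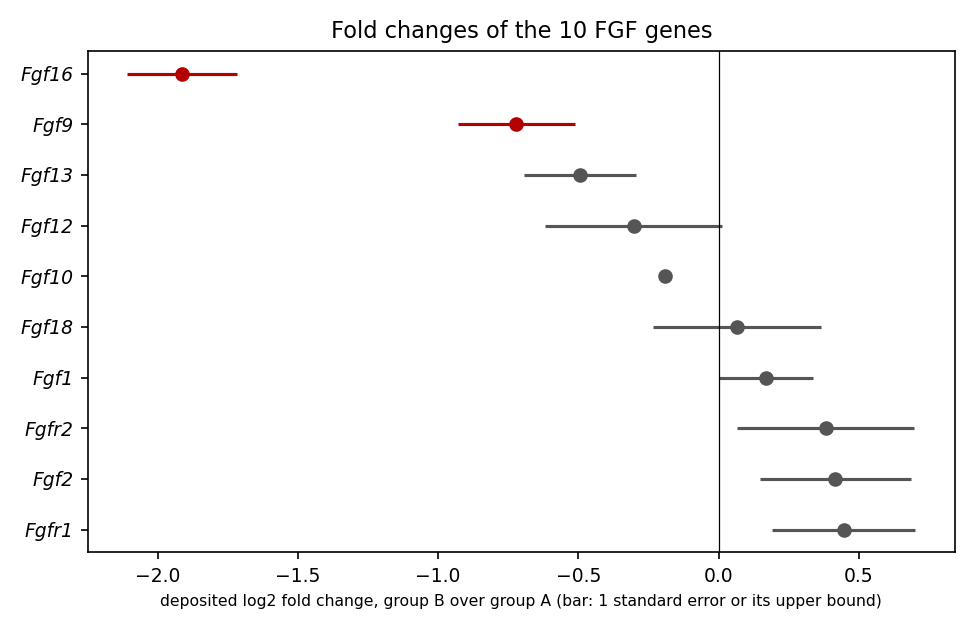
Deposited log2 fold change of group B over group A for the 10 FGF genes, with a bar of 1 standard error or its upper bound (no bar for Fgf10, which had none). Red points are the genes called lower, Fgf16 at -1.91 and Fgf9 at -0.72, and the grey points of the others lie between -0.49 and 0.45.

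Fgf16 (ENSMUSG00000031230, chromosome X, 105764279 to 105774939 on GRCm38, plus strand) had 62.0, 79.1 and 93.2 normalized reads in B1, B2 and B3, and 378, 289 and 334 in A1, A2 and A3. Every group B library lay under every group A library, and the lowest A library had more than 3 times the reads of the highest B library. The underlying whole reads were 97, 107 and 83 in group B and 437, 230 and 203 in group A. The means were 78.1 ± 15.6 in group B and 334 ± 44.6 in group A (SD, n = 3 libraries each), a ratio of 4.28 in favour of group A. The deposited log2 fold change, which is shrunken towards 0, was -1.91 (standard error, SE, 0.20, computed here from the p behind the adjusted p), with 1.68e-19 as the adjusted p of the authors' deposited table. By adjusted p it ranked 11 of 13230 genes, and by fold change 7 of the 319 genes called lower with a mean of at least 50.

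Around Fgf16 on the X chromosome, 6 other genes within 500 kb had an adjusted p, and none was called. The nearest, Atrx, a chromatin remodeller 22.7 kb away, had a log2 fold change of 0.03 and an adjusted p of 0.951 by the authors' deposited table. Magt1, a magnesium transporter, stood at -0.28 and the other 4 between -0.05 and 0.38 by the authors' deposited table.

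Fgf9 (ENSMUSG00000021974, chromosome 14), a secreted factor of the same subfamily, had 135, 158 and 96.5 normalized reads in B1, B2 and B3, and 239, 196 and 254 in A1, A2 and A3. The groups did not overlap, and B3 was the lowest of all. Its means were 130 ± 31.2 in group B and 229 ± 30.0 in group A (SD, n = 3 libraries each), a ratio of 1.76 in favour of group A. The deposited log2 fold change was -0.72 (SE 0.21), with 0.0191 as the adjusted p of the authors' deposited table. None of the 7 tested genes within 500 kb of it was called, and the nearest, the mitochondrial calcium uptake gene Micu2, stood at 0.12 by the authors' deposited table. The remaining gene of the subfamily, Fgf20, was barely read, at a deposited mean of 0.583. A refit of recovered reads with limma-voom, over 4135 genes, gave Fgf9 a log2 fold change of -0.80 and an adjusted p of 0.0895, above the threshold, while Fgf16 had -2.15 and 2.98e-04. Apart from FGF genes, the genes of that refit had means under 100, below those of Fgf9 and Fgf16. The refit called Fgf9 without B3, at -0.64 and an adjusted p of 0.0426, when 169 genes were called, against 28 with all libraries. Leaving out any other library gave adjusted p-values of 0.0625 to 0.404 for Fgf9 in limma-voom.

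**Figure D2:**
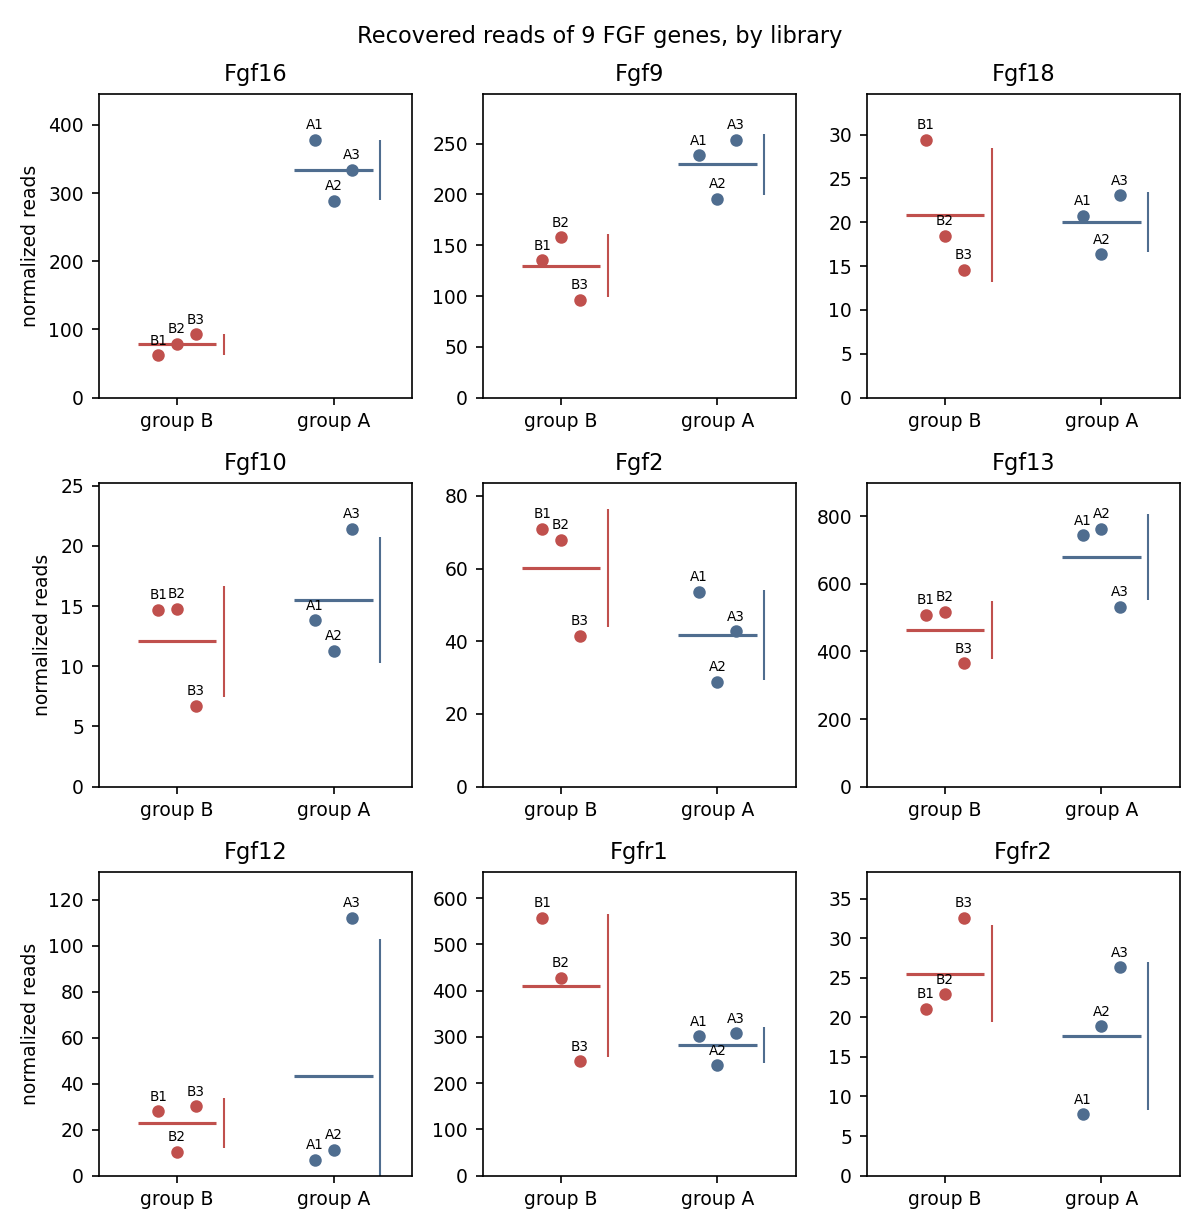
Normalized reads (recovered reads divided by the size factor of the library) of 9 FGF genes, with group B left of group A in each panel, a point per library, a horizontal line at the group mean and a vertical line of 1 SD to each side, cut at 0. Fgf16, Fgf9 and Fgf13 have no overlap between groups, and in the other 6 panels the groups overlap.

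Of the other secreted factors, Fgf2, Fgf18 and Fgf10 had overlapping groups. Fgf1, the factor with the highest level in these ventricles and one that binds all FGF receptors, had a deposited mean of 4036. The log2 fold change of Fgf1 was 0.17 (standard error at most 0.17, adjusted p 0.750 by the authors' deposited table). Its reads per library were not searched for, since its mean lay above the range searched and other genes shared its adjusted p. Fgf2, a factor stored in the matrix on heparan sulfate, had 70.9, 68.0 and 41.5 normalized reads in B1 to B3, and 53.6, 28.9 and 42.8 in A1 to A3. B1 and B2 lay above every A library and B3 did not. Its deposited log2 fold change was 0.42 (SE 0.27), with 0.523 as the adjusted p of the authors' deposited table. Fgf2 shares 640 exon bases with Nudt6 on the opposite strand (deposited mean 116, log2 fold change -0.28, adjusted p 0.508 by the authors' deposited table), and without knowledge of strand in the counting these reads cannot be told apart.

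Fgf18, a factor of bone and lung development, was low, at 29.4, 18.5 and 14.6 normalized reads in B1 to B3 and 20.8, 16.3 and 23.1 in A1 to A3. Its group means were close, 20.8 in group B and 20.1 in group A, though the libraries of group B ran from 14.6 to 29.4. Its deposited log2 fold change was 0.07 (SE 0.30), with 0.964 as the adjusted p of the authors' deposited table. Fgf10, a mesenchymal factor that signals to epithelium and is needed for lung and limb buds, had 14.7, 14.8 and 6.74 normalized reads in B1 to B3 and 13.8, 11.3 and 21.4 in A1 to A3. At 6 to 23 whole reads a library, a difference of the size of the deposited log2 fold change, -0.19, was not detectable. The deposited mean of Fgf10, 13.8, lies under the lowest mean with an adjusted p, 16.0.

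Of the intracellular factors, Fgf13 (chromosome X, 59062145 to 59568071 on GRCm38, minus strand) had 509, 518 and 366 normalized reads in B1 to B3, and 744, 763 and 532 in A1 to A3. The groups did not overlap, but A3 lay only just above B2, and the third library was the lowest in each group. The means were 464 ± 85.2 in group B and 680 ± 128 in group A (SD, n = 3 libraries each). The deposited log2 fold change was -0.49 (SE 0.20), with 0.165 as the adjusted p of the authors' deposited table. In all, 3 of the 9 genes with recovered reads had no overlap between groups, and among the 2967 genes with recovered reads and a mean of 20 to 100, 19.1% had none in either direction and 6.3% had every B library below every A library. The 3 genes have means above 100, outside that range, so these shares are no direct background for them.

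Fgf12 (chromosome 16) was highest in 1 library, A3. It stood at 28.1, 10.3 and 30.3 normalized reads in B1 to B3, and at 6.92, 11.3 and 112 in A1 to A3. A3 held 68 whole reads, against 8 in A1 and 9 in A2, and lay above every other library. The means were 22.9 ± 10.9 in group B and 43.4 ± 59.5 in group A (SD, n = 3 libraries each), and the deposited log2 fold change was -0.30 (SE at most 0.32), with 0.769 as the adjusted p of the authors' deposited table. The log2 ratio of the group means was -0.92 over all libraries and 1.28 without A3, so that library sets the direction. The limma-voom refit, which weighs libraries on the log scale, gave 0.25 with an adjusted p of 0.920.

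Genes of other tissues stood apart in the same library. Mybphl, a myosin binding protein of atrial muscle, had 68.4, 24.4 and 107 normalized reads in B1 to B3 and 5.19, 27.6 and 339 in A1 to A3. Bmp10, a growth factor of the atria, had 2.56, 17.0 and 1.12 in B1 to B3 and 72.5 in A3, and no read in A1 or A2. Both were chosen after their values were seen. The 4 markers of the atrial list, Myl7, Myl4, Sln and Nppa, had deposited means of 981, 825, 200 and 2104, none at 0 and none of the 3 with an adjusted p called, and their reads per library were not recovered. All 3 adipocyte markers and the mesothelial markers Msln and Lrrn4 were also highest of group A in A3, while the mesothelial marker Wt1 was lowest there, at 67.5, against 81.3 in A1 and 81.7 in A2. In group B the adipocyte markers, Msln, Mybphl and Fgf12 were highest in B3, while Lrrn4 and Bmp10 were highest in B2 and Wt1 in B1. Adipoq had 26.2, 26.6 and 109 normalized reads in B1 to B3 and 4.33, 13.8 and 105 in A1 to A3, and Msln had 78.6, 98.3 and 130 in B1 to B3 and 6.06, 52.8 and 147 in A1 to A3. The part of these tissues in the Fgf12 value was not tested. In bulk ventricle, fewer cells of a type and less RNA per cell cannot be told apart. Fgf16 is not tied to A3 in the same way, since its log2 ratio was between -2.23 and -1.95 whichever library was left out.

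**Figure D3:**
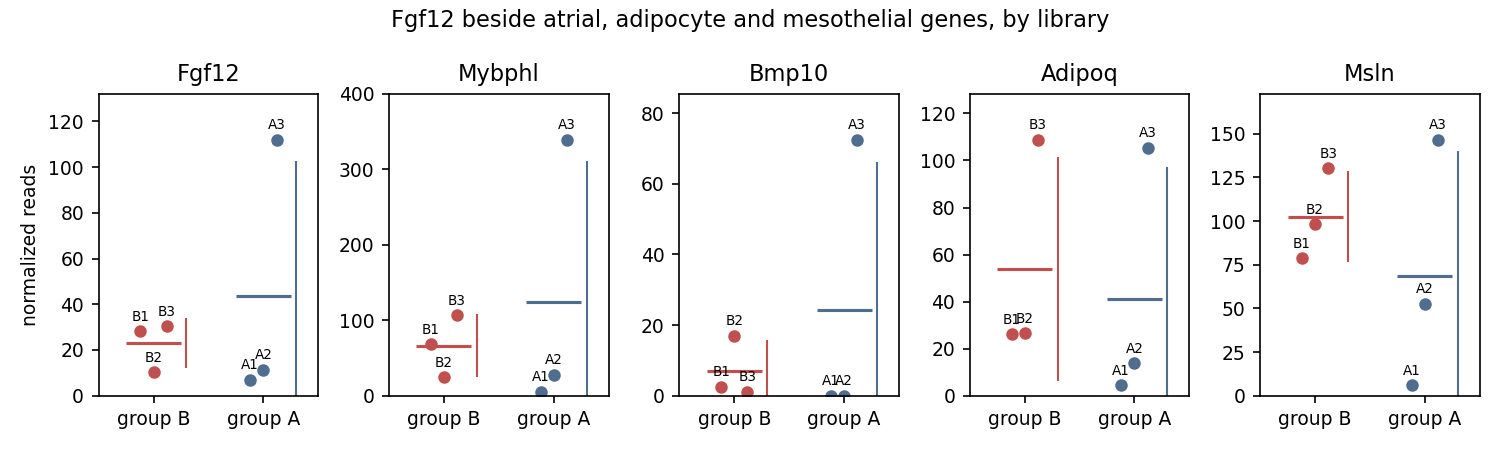
Normalized reads of Fgf12 and of an atrial pair (Mybphl, Bmp10), an adipocyte (Adipoq) and a mesothelial (Msln) gene, with group B left of group A, a point per library, a line at the group mean and a vertical line of 1 SD to each side, cut at 0. A3 is the highest library for Fgf12 at 112, Mybphl at 339, Bmp10 at 72.5 and Msln at 147, while B3 at 109 tops Adipoq.

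Both receptors had a positive fold change that was not called. Fgfr1, the main FGF receptor of heart muscle and fibroblasts, had 557, 428 and 248 normalized reads in B1 to B3 and 302, 239 and 308 in A1 to A3. B1 and B2 lay above every A library, and B3 lay among them. The deposited log2 fold change was 0.45 (SE 0.26), with 0.433 as the adjusted p of the authors' deposited table. In the limma-voom refit Fgfr1 was not called over all libraries (0.50, adjusted p 0.397) and was called without B3 (0.79, adjusted p 0.0202), when 169 genes were called, against 28 over all libraries. Without any other library its adjusted p in limma-voom was 0.471 to 0.756. Fgfr2, a receptor for factors such as FGF10 in epithelium, was low, with 21.1, 22.9 and 32.6 normalized reads in B1 to B3 and 7.79, 18.8 and 26.4 in A1 to A3. A1 and A2 lay below every B library, and A3 lay among them. Its deposited log2 fold change was 0.38 (SE 0.32), with 0.677 as the adjusted p of the authors' deposited table. The exons of Fgfr2 share 314 bases with Ctbp2 on the same strand in the annotation, so its count is uncertain.

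Divided by the length of all exons, the levels ran over more than 2 orders of magnitude. Fgf1 led with a deposited mean of 739 normalized reads per kb, followed by Fgf13 at 142, Fgf16 at 125, Fgf9 at 38.7, Fgfr1 at 35.1, Fgf18 at 17.2, Fgf2 at 7.52, Fgf12 at 5.35, Fgf10 at 3.00 and Fgfr2 at 2.09 per kb. Of the neighbours with recovered reads, only Fgf18 and Fgf2 had ranges over the 6 libraries that did not overlap. Length used the exons of GENCODE M21, and with the longest transcript in place of all exons 6 of the 10 genes kept their place. The M21 span of Fgf12 reaches base 28753068, past its deposited end at 28445227, so its level per kb is uncertain. For Fgf2 the deposited span is 37312519 to 37405377 and the M21 span 37348346 to 37410108. Its level per kb, and its separation from Fgf18, are uncertain for the same reason. Per kb of all exons Fgf16 stood at 47.5 in group B and 203 in group A, against 116 in group B and 169 in group A for Fgf13. Fgf13 was above Fgf16 in every B library and in A2, and below it in A1 and A3. By the longest transcript Fgf13 was above Fgf16 in all 3 B and all 3 A libraries, so their order rests on the length used. Fgf9 and Fgfr1 changed places by either length, with Fgf9 below Fgfr1 per kb in every B library and above it in every A library.

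**Figure D4:**
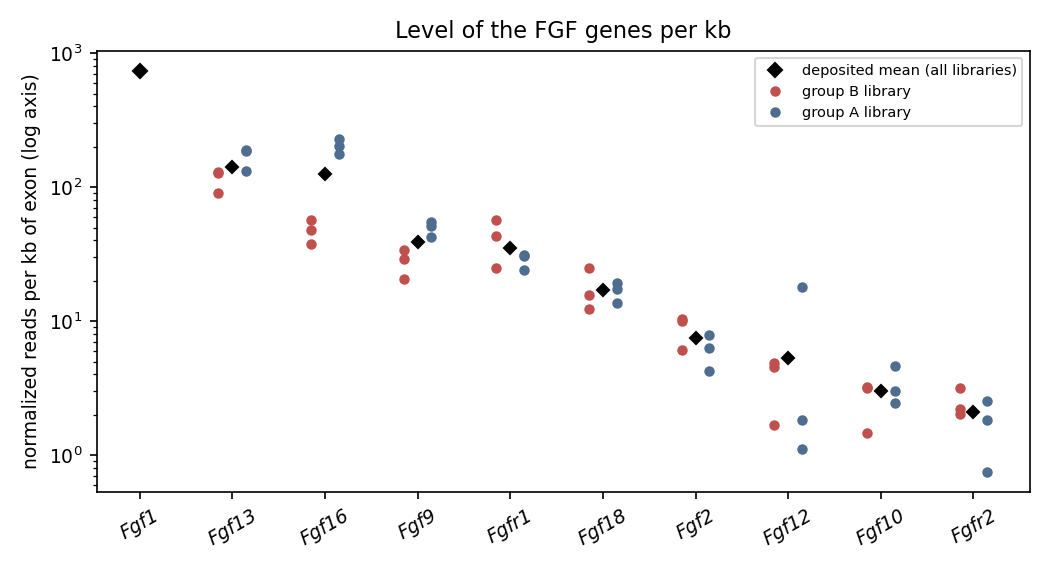
Normalized reads per kb of exon on a log axis for the 10 FGF genes in the order of their deposited mean (black diamonds), with group B libraries (red) left of group A libraries (blue). Fgf1 has a diamond alone at 739, Fgf16 is the gene with the widest gap between the groups, and the A3 point of Fgf12 lies far above its other A points.

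By Pearson's correlation of log2(normalized reads + 1) over the 6 libraries, among the 5 protein-coding genes most like Fgf16 of 2712 with recovered reads and a mean of at least 20 were Tbc1d10c (r = 0.99), 3632451O06Rik (0.98), Cnga3 (0.98) and Nipa1 (0.98). The points share libraries and size factors, most genes with a mean over 100 were outside this search, and a gene that differs between the groups for any reason reaches a high r. The median r was -0.21 and 65 genes had an r of at least 0.9. Tbc1d10c, a GTPase-activating protein that also binds calcineurin, had 55.0, 54.7 and 67.4 normalized reads in B1 to B3 and 140, 129 and 137 in A1 to A3. Cnga3, a subunit of a cyclic nucleotide gated channel, had 61.4, 73.9 and 71.8 in B1 to B3 and 143, 136 and 166 in A1 to A3. In these, as in Fgf16, the 3 B libraries lay together and apart from the 3 A libraries. The unnamed gene 3632451O06Rik had 70.9, 63.5 and 96.5 in B1 to B3 and 403, 420 and 389 in A1 to A3. Nipa1, a magnesium transporter, showed a smaller gap, with 222, 212 and 229 in B1 to B3 and 293, 273 and 292 in A1 to A3, and was not called (adjusted p 0.0819 by the authors' deposited table). Among the FGF genes, Fgf9 had an r of 0.83 with Fgf16 and rank 118, and Fgf13 an r of 0.69 and rank 258. Fgf2, Fgfr1 and Fgfr2 had r of -0.60, -0.63 and -0.52.

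The other genes of the FGF system, taken by role in 6 lists, had few calls. Of the 81 tested there, 1 was called lower and 3 higher in group B (4.94%), against 3.98% of all genes, and the median log2 fold change was -0.01, against -0.00. The count is near the background. Of the listed symbols, 107 were in the table, Anos1 and Spry3 had no row under those names, 8 genes had no reads and 18 had reads but no adjusted p.

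No other ligand was called. Of 14, 6 had no read in any library (Fgf3, Fgf4, Fgf8, Fgf15, Fgf21 and Fgf22), 5 had reads but no adjusted p, and 3 had an adjusted p. These were Fgf7 at 0.15, a fibroblast factor that acts on epithelium, Fgf11 at 0.05 and Fgf14 at 0.24, both intracellular factors, with adjusted p-values of 0.895, 0.970 and 0.707 by the authors' deposited table. Of 6 other receptors and co-receptors, Fgfr3 (-0.25, adjusted p 0.579) and the decoy receptor Fgfrl1 (-0.16, adjusted p 0.766) had an adjusted p and were not called, and the Klotho co-receptors Kl and Klb had deposited means of 3.36 and 1.35. These fold changes and p-values are those of the authors' deposited table.

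Heparan sulfate proteoglycans and FGF binding proteins held 3 of the 4 calls among 14 tested, with a list median of 0.19. The share called was 21.4% in this list and 5.0% among the heparan sulfate enzymes, against 3.98% of all genes with an adjusted p. None of these genes was called at 0.01. The lists are short and no test over them was made, so nothing is read from these shares. Gpc1, a glypican on the cell surface, was lower in group B, with a log2 fold change of -0.51 and an adjusted p of 0.0136 by the authors' deposited table. Gpc6, another glypican, had 659, 625 and 396 normalized reads in B1 to B3 and 340, 329 and 270 in A1 to A3, with no overlap (0.74, adjusted p 0.0185 by the authors' deposited table). Flrt2, a transmembrane protein whose family binds FGF receptors, had 417, 392 and 347 in B1 to B3 and 233, 229 and 318 in A1 to A3 (0.54, adjusted p 0.0499 by the authors' deposited table). Next by adjusted p was Sdc4, a syndecan, at -0.40 and 0.188 by the authors' deposited table. Neither Gpc6 nor Flrt2 had a B library below any A library. Of 20 tested heparan sulfate enzymes, the cleaving enzyme Hpse was called higher (0.83, adjusted p 0.0384 by the authors' deposited table), with 54.3, 38.4 and 50.5 normalized reads in B1 to B3 and 23.4, 18.8 and 29.7 in A1 to A3, again with no overlap. The sulfatase Sulf2 stood at -0.49, B3gat3 at -0.26 and Extl3 at -0.30, with none of them called by the authors' deposited table, and the list median was -0.09.

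Downstream of the receptors no gene was called. Of 26 adaptors and kinases, all with an adjusted p, the smallest was that of Akt2 (-0.28, adjusted p 0.0771), then Frs2, the docking protein of FGF receptors (0.55, adjusted p 0.157), Crk (-0.22, adjusted p 0.212) and Sos1 (0.49, adjusted p 0.280) by the authors' deposited table, and the list median was -0.04. Of 16 tested feedback inhibitors and transcriptional targets the smallest adjusted p was that of Etv1, an ETS factor (0.56, adjusted p 0.125), then Fos (-0.86, adjusted p 0.136), Ccnd1 (0.23, adjusted p 0.258) and Cbl (0.53, adjusted p 0.367) by the authors' deposited table, and the list median was 0.16. The Sprouty genes Spry1, Spry2 and Spry4 stood at -0.31, -0.10 and -0.01 and Dusp6, the ERK phosphatase, at -0.26. Of the same families, Spred1, Spred2 and Spred3 stood at 0.17, 0.26 and 0.47, and Dusp4 and Dusp5 at 0.04 and 0.33. All these values are from the authors' deposited table, and none of these genes was called. A p above the threshold does not show that these genes were alike in both groups.

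**Figure D5:**
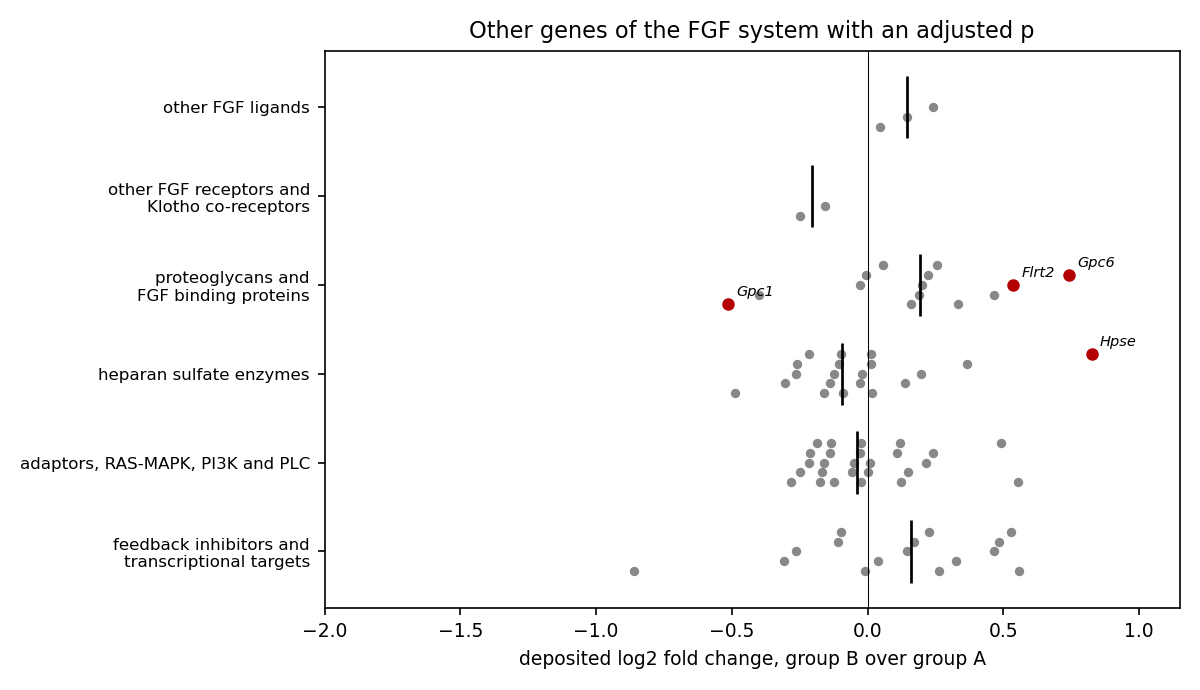
Deposited log2 fold change of group B over group A for the 81 other genes of the FGF system with an adjusted p, by list, with a black line at each list's median. The 4 called genes are red and named, Gpc1 at -0.51 lower, and Flrt2 at 0.54, Gpc6 at 0.74 and Hpse at 0.83 higher.

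Cell type markers were read beside these genes. Over all genes with an adjusted p, 2.49% were called lower, 1.5% higher and 3.98% either way. Of 6 fibroblast and 6 endothelial markers none was called, with medians of 0.16 and -0.04. Of 6 genes listed as smooth muscle and pericyte markers 1, Abcc9, was called lower (-0.65, adjusted p 0.00144 by the authors' deposited table), with a list median of 0.09. The rest of that list had positive log2 fold changes, from 0.04 for Myh11 to 0.21 for Rgs5. Of 5 macrophage markers 2 were called higher (Mrc1 and F13a1), with a median of 0.46, and of 3 tested neuron and Schwann cell markers 2, Dbh and Uchl1, were lower. Summed deposited means were 20997 for the fibroblast, 22249 for the endothelial, 4465 for the macrophage and 34588 for the smooth muscle and pericyte and 220 for the neuron and Schwann cell list, and none of these markers was at 0. The part of these cells in the FGF values was not tested.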

How the data were processed

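RNA from cardiac ventricles was sequenced with libraries made by a standard Illumina protocol, per the labels' protocols. Per the submitters' processing notes, Bowtie2 2.0 and DESeq2 were used, with mm9 as the build; no source used here states the read counting. The authors' deposited table gives for each gene a mean normalized count, a signal pooled over all libraries. It also holds a deposited log2 fold change, shrunken towards 0, and the authors' adjusted p-value, taken as deposited. Of 36602 identifiers matched to GENCODE M21, 69.6% had identical coordinates there, so coordinates are given as GRCm38. The planned samples could not be mapped to letters.

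Reads per library were recovered from the deposited means. Genes with 1 read in 1 library share a mean, which gave 6 steps, and the sign of their fold change gave the letter; libraries are numbered from deepest to shallowest. Of 13403 genes with a mean under 100, 99.9% had exactly 1 set of 6 whole numbers that summed to the mean within its 15 digits. For Fgf16, Fgf9, Fgfr1 and Fgf13 sets were searched from 0.5 to 1.8 times the group mean, giving 2, 2, 46 and 712 sets. Of each, exactly 1 gave back the p behind the deposited adjusted p under a negative binomial model whose prior variance was set on 65 other genes, within 1e-04 of its natural logarithm. Of 609 deeper genes searched, 414 were solved. The method was tested on simulated data, with 20 simulated read sets for each of these 4 genes, all at the same dispersion. Of the 20, a single set was reached in 20 for Fgf16, 18 for Fgf9, 16 for Fgfr1 and 15 for Fgf13. Each single set was right. Other deeper genes, among them Tbx5, Gpc6 and Flrt2, were not simulated. Standard errors are the fold change over the normal quantile of the p behind the adjusted p, an upper bound where genes share an adjusted p. PCR copies are not independent molecules, and p-values measure the spread between libraries, which may be technical.

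The refit used limma 3.58.1 (voom) in R 4.3.3 on genes with a mean from 10 to under 100 and on the 9 FGF genes with recovered reads. Fgf16, Fgf9, Fgfr1 and Fgf13, with means above 100, lay above the range of the other genes in it. The remaining steps used Python 3.11.15 and scipy 1.17.1. Members and lists were chosen with earlier results of these data known. Named were all 10 members, every called gene of a list and then the smallest adjusted p up to 4, and the 5 genes most like Fgf16. Some further genes, such as the Sprouty, Spred and Dusp genes, were named outside this rule. Alternatives were other thresholds, scalings, pseudocounts, lengths, libraries left out and the refit. The planned cell type marker lists served as a check only. 1 planned gene list and 1 of the 5 genes most like Fgf16 are not reported here.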

Additional observations from a re-analysis of the deposited data

How the results depend on the processing

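No paired analysis was possible because the labels give no replicate numbers and no library is mapped to a sample. Of 107 alternatives computed, 99 stayed within the spread between libraries, on the same side of a threshold or, for counts, within 1.5 times. That spread is each gene's own SD within groups on the log2 scale, 1.56 for Fgf12 and 0.25 for Fgf16. A noisy gene therefore stays within it easily, and the 99 are no measure of stability. The 99 include values of uncalled genes that changed sign: Fgf12 in the refit (0.25 against -0.30) and Fgf18, at 0.07, scaled by summed reads (-0.09), without A2 (-0.07) and without B1 (-0.27). None reversed the sign of a called gene, and the following moved or lost their call, for causes not tested. At a threshold of 0.01 the number of FGF members called was 1 (Fgf16) against 2, and of other FGF system genes 0 against 4. Scaled by summed reads, the log2 ratio of Fgf16 was -2.21, against -2.10 by the original size factors and the deposited, shrunken -1.91, and leaving out 1 library gave -2.23 to -1.95. For Fgf9 the limma-voom refit gave -0.80 with an adjusted p of 0.0895, which was 0.0426 without B3 and 0.0625 to 0.404 without any other library, and leaving out 1 library gave log2 ratios of -0.98 to -0.64. For Fgf12 leaving out 1 library gave -1.41 to 1.28, the positive value without A3; the cause was not tested. By longest transcript 6 of 10 members kept their order per kb. A wider search window of 0.02 to 2.9 times the group mean, chosen after seeing the data, gave the same reads for Fgf16 and Fgf9. Depth limits Fgf10, with 6 to 23 reads a library, and the reads of Fgf1 were not searched for.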
